A study of Mus musculus with 17 samples.

Results

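The heat shock proteins and their co-chaperones were taken as every gene symbol of the count matrix that begins with Hspa, Hspb, Hspd, Hspe, Hsph, Hsp90, Dnaj or Bag followed by a letter or digit. The pattern found 84 of 21640 genes, and 77 remained once 7 pseudogene and related-sequence entries were set aside. Gene-level RNA-seq counts were available for 17 mouse brain libraries in 4 groups. The Ai47 aSMC group held 6 libraries of EGFP-positive arteriolar smooth muscle cells (aSMCs) from the cortical parenchyma of adult SMACreER:Ai47 mice given tamoxifen about 1 month earlier, sorted after vessel enrichment and after removal of CD31- and CD45-positive cells. The Ai14 aSMC group held 2 libraries, numbered 7 and 8, of tdTomato-positive aSMCs from SMACreER:Ai14 mice. The astrocyte group held 3 libraries of tdTomato-positive cells sorted from the cerebral cortex of hGFAPCreER:Ai14 mice. The cortex group held 6 libraries of unsorted cortical homogenate labelled wild type. The study's text instead takes its control from the dissociated cortices that also gave the sorted Ai47 cells, so the genotype of these libraries, and whether they share animals with Ai47 aSMCs, is uncertain. Both aSMC groups carried a tamoxifen-dependent Cre under the smooth muscle actin promoter, which can also mark pericytes, and the astrocyte group carried one under the human GFAP promoter, which can also mark ependymal cells and neural progenitors. Age and tamoxifen timing of the Ai14 groups were not given in the sources used here.

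Chaperones bind unfolded or newly made proteins and keep them from clumping. The HSP70 proteins, encoded by the Hspa genes, and the HSP90 proteins do this in cycles driven by ATP, the J-domain proteins encoded by the Dnaj genes bring clients to HSP70, and the Bag proteins release nucleotide and client from it. The small heat shock proteins encoded by the Hspb genes hold clients without ATP, and several of them are abundant in muscle, where they bind filaments and the actin cytoskeleton. Hsf1, the heat shock factor, turns on the inducible members within minutes of a rise in unfolded protein, whereas the constitutive members are transcribed in every cell, and the members of the endoplasmic reticulum answer to a separate unfolded-protein response.

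Members were placed in classes by known location and mode of regulation. The stress-inducible class had 8 genes (Hspa1a, Hspa1b, Hsph1, Dnajb1, Dnajb4, Dnaja1, Hsp90aa1 and Bag3), the small heat shock class 6, the constitutive cytosolic class 17, the endoplasmic reticulum class 13 and the mitochondrial class 9. The remaining 31 members were 3 vesicle and coat proteins, 6 nuclear or ribosomal proteins, 2 HSP70-like genes of restricted tissues, 7 testis or cilium genes, 6 other genes and the 7 pseudogene entries.

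Depth differed between the groups, from 4537137 to 7390630 counts in the astrocyte libraries and 5397905 to 7288036 in cortex to 14870507 and 14979228 in Ai14 aSMCs and 41499087 to 53643624 in Ai47 aSMCs. The share of counts from mitochondrial DNA was 0.214% to 0.559% in Ai47 aSMCs, 16.8% and 17.6% in Ai14 aSMCs, 35.7% to 72.9% in cortex and 10.7% to 12.5% in the astrocyte libraries. Levels below are in CPM, read counts divided by library size, after TMM scaling, which aligns the bulk of genes between libraries. The 6 smooth muscle markers summed to 5165 to 6674 CPM in Ai47 aSMCs and 7818 to 8386 CPM in Ai14 aSMCs, against at most 283 CPM in any other library. The label astrocyte did not hold in full. The 6 astrocyte markers summed to 854 to 1386 CPM in those libraries, below the 3221 to 17420.0 CPM of cortex. The cortex sum was mostly Slc1a2, at 3019 to 16470 CPM against 129 to 627 CPM in those libraries. S100b was also lower there, and Slc1a3 and Aldh1l1 overlapped cortex. Aqp4 was higher there, at 460 to 564 CPM against 19.6 to 136 CPM in cortex. Gfap, at 25.2 to 160 CPM against 12.1 to 50.4 CPM, overlapped. The 6 ependymal markers summed to 811.5 to 1726 CPM there against at most 38.4 CPM elsewhere. The sorted libraries from hGFAPCreER:Ai14 mice are therefore called the astrocyte-labelled libraries. Immediate early genes, which rise within minutes of cell stimulation, summed to 2786 to 4103 CPM in Ai47 aSMCs and 2998 to 4430.0 CPM in Ai14 aSMCs, to 103 to 320.4 CPM in cortex and to 40.9 to 679 CPM in the astrocyte-labelled libraries. Reporter line, depth, mitochondrial share and sort were confounded with the groups and cannot be told apart. In bulk libraries fewer cells of a type and less RNA per cell also cannot be told apart, and since no label says that libraries of a group came from separate animals, p-values measure only the spread between these libraries. Raw counts varied by a coefficient of variation under 5% across the 6 Ai47 libraries in 179 of 7220 genes with a mean of 100 counts or more, against 0 of 3967 genes in cortex and 8 of 6394 in the astrocyte-labelled libraries. None of the 47 members at that level was among the 179 (0 of 47). In Ai14 aSMCs 1732 of 8765 genes (19.8%) and 13 of 63 members (20.6%) had a coefficient of variation that small. With only 2 libraries a small spread is easier to reach, so that share cannot be compared with the other groups.

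The proximal promoters of Hspa1a, Hspa1b and Hspb1 are shown first, because these genes rose in Ai14 aSMCs and hold the pair of units through which heat shock factors act. They were chosen for that pair, and the windows of Hspb7, Hspa2 and Dnajc25, which had larger log2 fold changes over cortex in an aSMC group, held none. Each is the 250 bases before the RefSeq transcription start in GRCm38.p6, read 5′ to 3′ on the strand of the gene. Capitals mark GAANNTTC, an inverted pair of the nGAAn unit that heat shock factors bind. Hspa1a lies at chr17:34972157-34972406 on the minus strand, Hspa1b at chr17:34959239-34959488 on the minus strand and Hspb1 at chr5:135887669-135887918 on the plus strand.
Hspa1a: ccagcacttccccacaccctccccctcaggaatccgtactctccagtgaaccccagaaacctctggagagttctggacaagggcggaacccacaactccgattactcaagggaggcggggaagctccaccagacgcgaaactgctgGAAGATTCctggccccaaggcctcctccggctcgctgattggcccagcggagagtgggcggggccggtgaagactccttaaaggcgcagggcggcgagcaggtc
Hspa1b: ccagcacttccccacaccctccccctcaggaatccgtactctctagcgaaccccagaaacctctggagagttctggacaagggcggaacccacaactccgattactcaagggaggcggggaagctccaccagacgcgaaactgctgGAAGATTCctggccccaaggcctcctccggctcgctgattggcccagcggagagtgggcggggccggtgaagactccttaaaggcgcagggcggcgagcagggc
Hspb1: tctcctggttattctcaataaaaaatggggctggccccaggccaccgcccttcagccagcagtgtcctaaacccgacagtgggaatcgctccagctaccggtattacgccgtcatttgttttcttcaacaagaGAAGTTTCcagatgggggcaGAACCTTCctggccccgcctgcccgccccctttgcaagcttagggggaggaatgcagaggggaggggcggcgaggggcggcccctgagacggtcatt
The pair stood 104 to 97 bases before the start of Hspa1a and of Hspa1b, whose windows differed at 3 of 250 positions. Hspb1 held a pair at 117 to 110 bases and another at 97 to 90 bases before its start.

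Over all genes, GAANNTTC occurred in 6.69% and its counterpart TTCNNGAA in 7.17% of 32851 promoter windows, both strands being covered because each pair reads the same on either strand. One or the other occurred in 12.8% of all windows and in 16 of the 81 windows of members (19.8%). Counted by gene, with a match in any 1 window sufficient, it occurred in 5 of 7 stress-inducible genes, 3 of 5 small heat shock genes, 2 of 14 constitutive cytosolic genes, 1 of 11 endoplasmic reticulum genes and 2 of 6 mitochondrial genes that had a window. The stress-inducible Dnajb1 had no match and was called higher in Ai14 aSMCs than in cortex. Dnaja1 and Hsph1 had a match and were not called in that comparison. The longer GAANNTTCNNGAA, searched on both strands and overlapping the pairs, occurred in 0.466% of windows and among members only in Dnajb6, Hspd1 and Hspe1. Hspd1 and Hspe1, which encode the mitochondrial HSP60 and HSP10, are read in opposite directions from 1 shared promoter with 215 bases between their RefSeq starts. Its element lies at chr1:55088053-55088082 on the plus strand, with the run of inverted units in capitals.
Hspd1 and Hspe1: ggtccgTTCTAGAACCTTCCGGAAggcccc
The endoplasmic reticulum stress response element, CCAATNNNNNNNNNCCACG on either strand, occurred in 0.113% of windows and in 3 of 11 endoplasmic reticulum members, Hspa5, Hsp90b1 and Dnajc3. These are shown with 5 bases on each side and the element's fixed letters in capitals, for Hspa5 at chr2:34772020-34772048 on the plus strand, for Hsp90b1 at chr10:86705633-86705661 and chr10:86705528-86705556 on the minus strand, and for Dnajc3 at chr14:118937822-118937850 on the plus strand.
Hspa5: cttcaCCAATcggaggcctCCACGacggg
Hsp90b1, upstream: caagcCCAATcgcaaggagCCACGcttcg
Hsp90b1, downstream: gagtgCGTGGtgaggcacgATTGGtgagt
Dnajc3: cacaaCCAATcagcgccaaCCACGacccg
The CArG box bound by serum response factor in smooth muscle genes occurred in 1.47% of windows and in 0 of 5 small heat shock genes. These matches describe letters in a window and do not show that a factor bound there.

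Together the 84 members took 4918 to 6747 CPM in Ai47 aSMCs, 3691 to 4298 CPM in Ai14 aSMCs, 1669 to 2099 CPM in cortex and 5061 to 12400.0 CPM in the astrocyte-labelled libraries. On this scale cortex was the lowest in all its 6 libraries. The TMM factors were 0.423 to 0.551 in Ai47 aSMCs, 2.21 in both Ai14 libraries and 0.697 to 1.87 in cortex. The place of Ai47 aSMCs in this order, above cortex and Ai14 aSMCs, therefore rests on the scaling. Members at a mean of 100 CPM or more numbered 11 in Ai47 aSMCs, 12 in Ai14 aSMCs, 4 in cortex and 16 in the astrocyte-labelled libraries, and 8, 5, 4 and 12 members had no counts in the respective groups. The leading members differed in each group when levels were divided by exon length. In CPM per kb of exon, Hspa2 at 291, Dnaja1 at 254 and Dnajc18 at 88.6 led in Ai47 aSMCs, whereas Hspa1a at 192, Hspb1 at 137 and Hspa8 at 108 led in Ai14 aSMCs. Cortex was led by Hsp90ab1 at 96.6, Hspa8 at 47.4 and Bag1 at 45.3 CPM per kb, and the astrocyte-labelled libraries by Hsp90aa1 at 474.5, Hsp90ab1 at 220.4 and Hspa8 at 182. Of the 73 members tested over the 17 libraries, 34 had their highest mean in the astrocyte-labelled libraries, 20 in Ai47 aSMCs, 15 in Ai14 aSMCs and 4 in cortex. Between libraries of a group the members' median coefficient of variation was 45.8%, 15.9%, 46.5% and 76.7% in Ai47 aSMCs, Ai14 aSMCs, cortex and the astrocyte-labelled libraries, beside 50.4%, 13.1%, 50.6% and 94.9% over all genes at the same minimum of 5 CPM.

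In Ai14 aSMCs against cortex, the members called higher belonged to the stress-inducible and small heat shock classes, apart from Hspa2, an HSP70 best known from spermatocytes. The call was an adjusted p under 0.05 from the edgeR quasi-likelihood test, adjusted by Benjamini-Hochberg over all genes tested. Of 73 tested members 8 were higher and 0 lower, where 5.97% of all genes were called, 3.97% as higher and 2% as lower. Those 8 were the stress-inducible Hspa1a, Hspa1b, Dnajb1 and Dnajb4, the small heat shock genes Hspb1, Hspb2 and Hspb7, and Hspa2. Beside these calls, DESeq2 called 7 members higher and 1 lower, and edgeR had 13 higher and 1 lower at an unadjusted p under 0.05. Fitting only the Ai14 and cortex libraries gave 9 higher and 4 lower, and library totals in place of TMM gave 13 higher and 0 lower. By class, 4 of 8 stress-inducible and 3 of 5 tested small heat shock members were higher, with median log2 fold changes of 2.68 and 4.35, against 0.32 over all genes. Of 39 constitutive cytosolic, endoplasmic reticulum and mitochondrial members, 0 were called, and their log2 fold changes ran from -1.11 to 1.96 with standard errors of 0.44 to 1.70, so smaller changes could not be detected with 2 Ai14 libraries. Without Ai14 replicate 7 the higher members numbered 5, and without Ai14 replicate 8 they numbered 4.

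In Ai47 aSMCs against cortex, 4 of the 5 main classes held members called in both directions. Of 62 tested members 21 were higher and 15 lower, where 58.6% of all genes were called, 33.6% as higher and 25% as lower. Stress-inducible members split into 2 higher and 2 lower of 8, constitutive cytosolic members into 4 and 4 of 15, endoplasmic reticulum members into 4 and 4 of 13 and mitochondrial members into 4 and 3 of 9, and 1 of 4 tested small heat shock members was higher and 0 lower. The median log2 fold change was 0.29 over the members and 0.32 over all genes. Direction here rested on the scaling, since with library totals in place of TMM the median of all genes moved to -1.13 and the members divided into 11 higher and 25 lower. With the 6 Ai47 columns summed to 1 library, which is assumed to vary like the other groups, 12 were higher and 3 lower.

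The astrocyte-labelled libraries differed from cortex in members of every main class. Of 73 members 28 were higher and 6 lower, where 34.5% of all genes were called, 14.6% as higher and 19.8% as lower. With library totals alone the split was 34 and 2. Stress-inducible members numbered 5 higher and 1 lower of 8, constitutive cytosolic members 7 and 2 of 17, endoplasmic reticulum members 5 and 0 of 13, mitochondrial members 4 and 1 of 9, and 2 of 5 small heat shock members were higher. The median log2 fold change was 1.36 over the members and -0.08 over all genes. All 3 comparisons used the same cortex libraries.

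**Figure D1:**
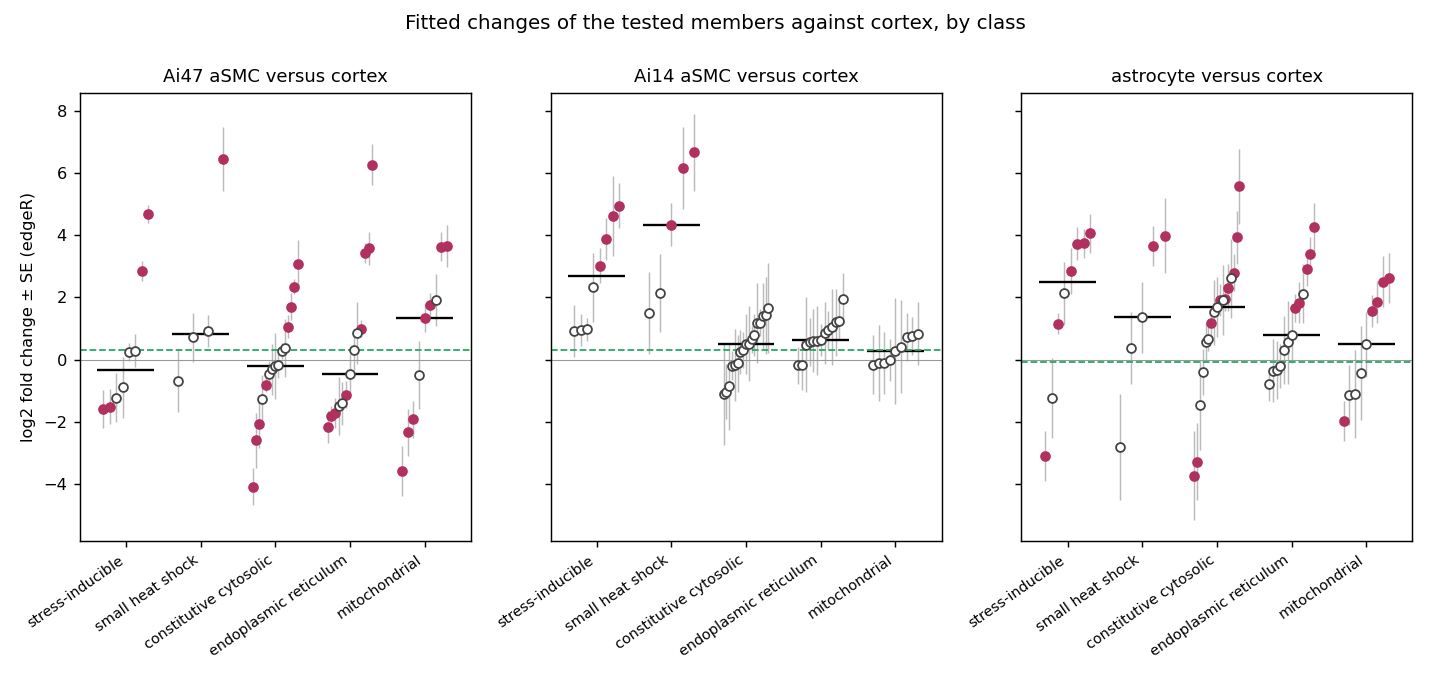
Log2 fold change against cortex, with its standard error as a grey line, for each tested member of 5 classes (filled points, edgeR adjusted p under 0.05; black bar, class median; green dashed line, median of all tested genes). In the middle panel the filled points lie in the stress-inducible and small heat shock classes, with 0 of 39 in the other 3, whereas the left panel has filled points on both sides of 0 in 4 of the 5 classes.

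Between the sorted groups, Ai47 aSMCs had 11 members higher and 27 lower than the astrocyte-labelled libraries, where 49.9% of all genes were called, 26.1% as higher and 23.8% as lower. With library totals alone 5 were higher and 44 lower. Ai14 aSMCs had 7 members higher and 3 lower than the same libraries, where 17.1% of all genes were called, 13.6% as higher and 3.56% as lower. That split was 6 and 8 with DESeq2 size factors and 6 and 1 with library totals. Leaving out single libraries moved the higher count between 3 without Ai14 replicate 8 and 9 without astrocyte replicate 3. The lower count lay between 0 without Ai14 replicate 7 or 8 and 9 without astrocyte replicate 3. Ai47 against Ai14 aSMCs had 6 members higher and 18 lower of 73, where 25.6% of all genes were called, 9.55% as higher and 16% as lower. With library totals alone 1 was higher and 37 lower. That comparison leaned on both Ai14 libraries, as 2 were higher and 3 lower without replicate 7, and 2 higher and 7 lower without replicate 8. Stress-inducible members made up 1 of the 6 higher and 5 of the 18 lower members.

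Hspa1a, the strictly inducible HSP70, was at 681 and 457 CPM in the 2 Ai14 aSMC libraries. In Ai47 aSMCs it had a lowest of 2.31, a median of 5.92 and a highest of 12.5 CPM, in cortex a lowest of 3.87, a median of 19.3 and a highest of 27.9 CPM, and in the astrocyte-labelled libraries 0.375, 1.52 and 4.40 CPM. Both Ai14 libraries stood far above every other library, and cortex was second. The rise in Ai14 aSMCs over cortex (log2 fold change 4.95 ± 0.72 SE, edgeR adjusted p = 0.000192) and over the astrocyte-labelled libraries (log2 fold change 8.06 ± 1.08 SE, edgeR adjusted p = 3.44e-05) kept its call without either Ai14 library. The call over the astrocyte-labelled libraries was lost when only the libraries of those 2 groups were fitted. Ai47 aSMCs were lower than Ai14 aSMCs (log2 fold change -6.51 ± 0.75 SE, edgeR adjusted p = 3.97e-06), though not called so with their 6 columns summed to 1 library. They were also lower than cortex (log2 fold change -1.51 ± 0.57 SE, edgeR adjusted p = 0.0311), which was lost without Ai47 replicate 2 (adjusted p = 0.0541) and without cortex replicates 1, 2, 4, 5 or 6 one at a time (adjusted p = 0.0502 to 0.0993). Hspa1a was lower in the astrocyte-labelled libraries than in cortex (log2 fold change -3.10 ± 0.80 SE, edgeR adjusted p = 0.00601), a call lost with library totals alone (adjusted p = 0.0532). Several immediate early genes also differed between the aSMC groups, in both directions. Egr1, Fosb, Nr4a1 and Jun were higher in both Ai14 libraries than in every Ai47 library, with Egr1 at 1342 and 2096 CPM in Ai14 and 231 to 414 CPM in Ai47 aSMCs. Fos and Junb were lower in both, with Fos at 397 and 535 CPM in Ai14 and 1715 to 2746 CPM in Ai47 aSMCs. Their part in the Hspa1a result was not tested.

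Hspa1b, its near-duplicate 9951 bases away on chromosome 17, was likewise highest in both Ai14 libraries. It was at 171 and 127 CPM in Ai14 aSMCs. Elsewhere Hspa1b had a lowest of 0.808, a median of 0.985 and a highest of 14.2 CPM in Ai47 aSMCs, a lowest of 0.874, a median of 3.24 and a highest of 21.7 CPM in cortex and 4.40, 3.30 and 0 CPM in the astrocyte-labelled libraries. Both coding sequences were 99.6% identical and 58.8% of the 50-base stretches of the Hspa1a transcript also occurred in Hspa1b, so how reads were divided between this pair is uncertain. The call over cortex (log2 fold change 4.63 ± 1.28 SE, edgeR adjusted p = 0.0343) was lost in 12 alternatives, among them without Ai14 replicate 7 (adjusted p = 0.32) or 8 (adjusted p = 0.235) and without cortex replicates 1, 2, 3, 4 or 6. Summed and set against Hspa8 per kb of exon, which is a ratio within each library that no scaling can move, Hspa1a plus Hspa1b was 1.88 to 2.62 times Hspa8 in Ai14 aSMCs. The ratio was 0.0300 to 0.589 in cortex, 0.0208 to 0.209 in Ai47 aSMCs and 0.00670 to 0.0117 in the astrocyte-labelled libraries, and these 3 ranges lay below that of Ai14 aSMCs.

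**Figure D2:**
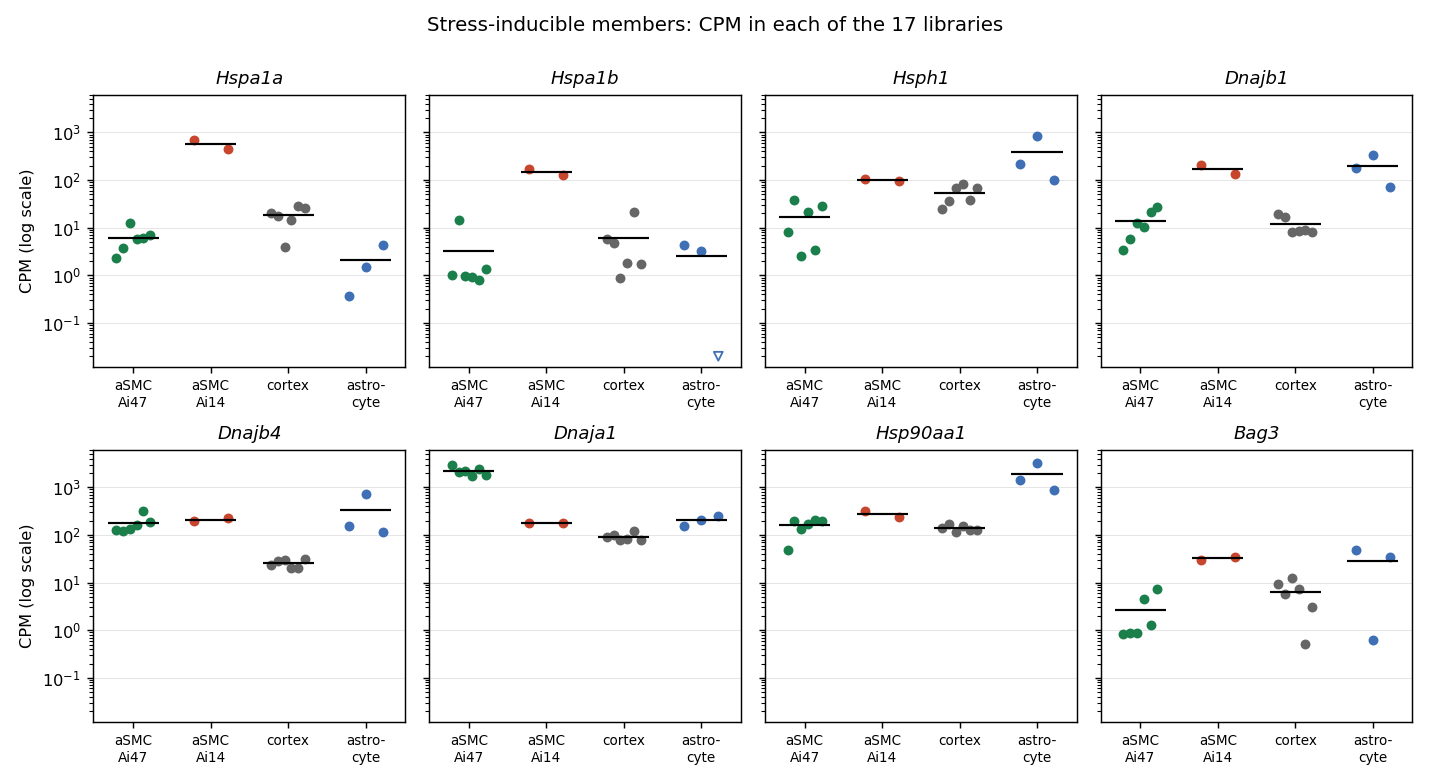
Level (CPM, log axis) of each stress-inducible member in the 17 libraries, with points for libraries, black bars for group means and open triangles at the bottom for libraries at 0. Hspa1a and Hspa1b are highest in both Ai14 aSMC libraries, Dnaja1 in all 6 Ai47 aSMC libraries and Hsp90aa1 in the 3 astrocyte-labelled libraries.

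The inducible J-domain proteins Dnajb1 and Dnajb4, which hand clients to HSP70, were high in more than 1 sorted group. Dnajb1 was at 205 and 136 CPM in Ai14 aSMCs and 178, 338 and 70.4 CPM in the astrocyte-labelled libraries, against a lowest of 7.94, a median of 8.77 and a highest of 19.4 CPM in cortex and a lowest of 3.35, a median of 11.5 and a highest of 27.7 CPM in Ai47 aSMCs. It was higher than cortex in Ai14 aSMCs (log2 fold change 3.87 ± 0.68 SE, edgeR adjusted p = 0.00102) and in the astrocyte-labelled libraries (log2 fold change 4.06 ± 0.64 SE, edgeR adjusted p = 0.000115), and the ranges of Ai47 aSMCs and cortex overlapped. Dnajb4 was at 192 and 222 CPM in Ai14 aSMCs, a lowest of 123, a median of 146 and a highest of 319.7 CPM in Ai47 aSMCs and 154, 741 and 118 CPM in the astrocyte-labelled libraries. All 3 sorted groups lay above the 19.8 to 31.9 CPM of cortex. All 3 differences were called, in Ai47 aSMCs (log2 fold change 2.85 ± 0.31 SE, edgeR adjusted p = 7.65e-07), Ai14 aSMCs (log2 fold change 3.02 ± 0.56 SE, edgeR adjusted p = 0.00187) and the astrocyte-labelled libraries (log2 fold change 3.73 ± 0.53 SE, edgeR adjusted p = 4.33e-05). The Ai14 call was lost without Ai14 replicate 8 (adjusted p = 0.0871).

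Dnaja1, a farnesylated J-domain partner of HSP70, was set apart in Ai47 aSMCs. It had a lowest of 1709, a median of 2137 and a highest of 2957 CPM there, with 178 and 179.6 CPM in Ai14 aSMCs, a lowest of 78.1, a median of 85.0 and a highest of 120.1 CPM in cortex and 151, 209.9 and 249 CPM in the astrocyte-labelled libraries. Every Ai47 library was above every other library. Ai47 aSMCs were higher than cortex (log2 fold change 4.69 ± 0.28 SE, edgeR adjusted p = 8.4e-10), than the astrocyte-labelled libraries (log2 fold change 3.43 ± 0.42 SE, edgeR adjusted p = 2.1e-06) and than Ai14 aSMCs (log2 fold change 3.62 ± 0.51 SE, edgeR adjusted p = 3.68e-05). These 3 calls kept their threshold and sign in every alternative run. Dnaja1 took 34.4% to 43.8% of all member counts in Ai47 aSMCs, against at most 7.2% in any other library. Set against its paralog Dnaja2 per kb of exon, Dnaja1 was 32.4 to 152 times as high in Ai47 aSMCs and 1.27 to 4.11 times in the other libraries. Of its 3 RefSeq windows 1 holds a GAANNTTC pair, 124 to 117 bases before the start. The class as a whole summed to 2079 to 3148 CPM in Ai47 aSMCs, to 1488 and 1874 CPM in Ai14 aSMCs, to 320.2 to 377 CPM in cortex and to 1457 to 5408 CPM in the astrocyte-labelled libraries. In Ai47 aSMCs most of that sum was Dnaja1 alone, at 1709 to 2957 CPM. The order of the class sums therefore does not describe the other members of the class.

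Hsp90aa1, the inducible HSP90, was at 1428, 3286 and 882 CPM in the astrocyte-labelled libraries. It was at 312 and 234 CPM in Ai14 aSMCs. Elsewhere Hsp90aa1 had a lowest of 48.2, a median of 180.0 and a highest of 207 CPM in Ai47 aSMCs and a lowest of 116, a median of 137 and a highest of 169 CPM in cortex. The astrocyte-labelled libraries did not overlap the others, and Ai47 aSMCs overlapped cortex. The rise over cortex was called (log2 fold change 3.74 ± 0.46 SE, edgeR adjusted p = 1.11e-05), and Ai47 aSMCs were lower than the astrocyte-labelled libraries (log2 fold change -3.56 ± 0.46 SE, edgeR adjusted p = 4.21e-06). Per kb of exon the ratio of Hsp90aa1 to the constitutive Hsp90ab1 was 1.07 to 4.17 in the astrocyte-labelled libraries, 0.275 to 0.456 in cortex, 0.301 to 1.17 in Ai47 aSMCs and 0.806 and 0.843 in Ai14 aSMCs.

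Hsph1, the HSP110 that serves HSP70 as exchange factor, was at 213, 828 and 98.9 CPM in the astrocyte-labelled libraries and 104 and 97.5 CPM in Ai14 aSMCs. It had a lowest of 24.6, a median of 52.8 and a highest of 82.3 CPM in cortex and a lowest of 2.56, a median of 14.8 and a highest of 38.0 CPM in Ai47 aSMCs. The rise in the astrocyte-labelled libraries over cortex (log2 fold change 2.85 ± 0.74 SE, edgeR adjusted p = 0.00614) rested on replicate 2 of that group (adjusted p = 0.183 without it). The fall in Ai47 aSMCs below cortex (log2 fold change -1.59 ± 0.62 SE, edgeR adjusted p = 0.0363) was lost in 9 alternatives, among them without Ai47 replicates 1, 3 or 5 and without cortex replicates 3, 4, 5 or 6, at adjusted p of 0.0501 without Ai47 replicate 3 to 0.0955 without cortex replicate 4. Bag3, the co-chaperone that links HSP70 to selective autophagy in muscle, was at 30.2 and 34.7 CPM in Ai14 aSMCs and 0.838 to 7.31 CPM in Ai47 aSMCs. In cortex it was at 0.517 to 12.6 CPM, and in the astrocyte-labelled libraries at 49.4, 0.634 and 34.6 CPM. The difference of Ai47 from Ai14 aSMCs (log2 fold change -3.62 ± 1.10 SE, edgeR adjusted p = 0.0197) was lost in 8 alternatives, among them without Ai14 replicate 7 (adjusted p = 0.122), and without Ai47 replicates 1, 2, 3 or 5 one at a time. The difference of Ai14 aSMCs from cortex was not called (log2 fold change 2.33 ± 1.11 SE).

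**Figure D3:**
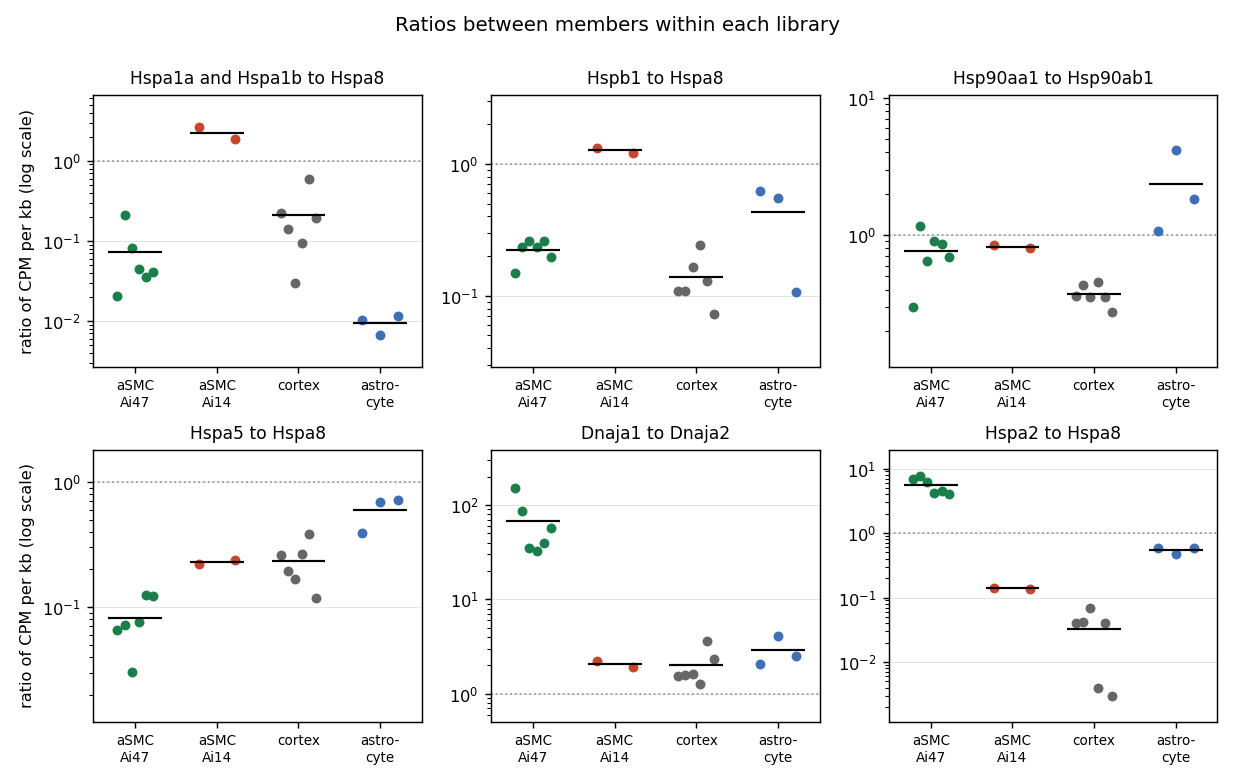
Ratios between members within each library, per kb of exon (log axis), with points for libraries and black bars for group means. Hspa1a plus Hspa1b over Hspa8 and Hspb1 over Hspa8 are highest in both Ai14 aSMC libraries, and Dnaja1 over Dnaja2 in the 6 Ai47 aSMC libraries.

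The small heat shock proteins summed to 211 CPM in both Ai14 aSMC libraries, against 16.8 to 49.7 CPM in Ai47 aSMCs, 5.48 to 26.9 CPM in cortex and 62.5 to 227 CPM in the astrocyte-labelled libraries. Hspb1, the actin-binding HSP27, was at 151 and 132 CPM in Ai14 aSMCs. Elsewhere Hspb1 had a lowest of 7.35, a median of 13.2 and a highest of 17.7 CPM in Ai47 aSMCs, a lowest of 3.59, a median of 5.35 and a highest of 14.2 CPM in cortex and 107, 144 and 13.8 CPM in the astrocyte-labelled libraries. Both Ai14 libraries lay above every Ai47 and cortex library, and the Ai47 and cortex ranges overlapped. It was higher than cortex in Ai14 aSMCs (log2 fold change 4.35 ± 0.69 SE, edgeR adjusted p = 0.000405) and in the astrocyte-labelled libraries (log2 fold change 3.67 ± 0.64 SE, edgeR adjusted p = 0.000298). Ai47 aSMCs were lower than Ai14 aSMCs (log2 fold change -3.50 ± 0.68 SE, edgeR adjusted p = 0.00089). That call held without either Ai14 library but not with the 6 Ai47 columns summed to 1 library. Per kb of exon the ratio of Hspb1 to Hspa8 was 1.21 and 1.32 in Ai14 aSMCs, 0.148 to 0.260 in Ai47 aSMCs, 0.0723 to 0.241 in cortex and 0.106 to 0.628 in the astrocyte-labelled libraries.

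Hspb7, a small heat shock protein of heart and other muscle, was at 23.6 and 26.2 CPM in Ai14 aSMCs. Its Ai47 libraries had a lowest of 0.162, a median of 0.924 and a highest of 1.49 CPM, its cortex libraries 0 to 0.624 CPM, and its astrocyte-labelled libraries 0.0936, 1.78 and 0.0505 CPM. The ranges of the 2 aSMC groups did not overlap. Among the smooth muscle markers Tagln, Myl9, Cnn1 and Myh11 were likewise higher in both Ai14 libraries than in every Ai47 library, with Tagln at 220.4 and 274 CPM against 7.81 to 21.9 CPM and Myl9 at 795 and 875 CPM against 166 to 282 CPM, whereas Acta2 and Des overlapped. Their part in the Hspb7 difference was not tested. The rise over cortex in Ai14 aSMCs (log2 fold change 6.67 ± 1.24 SE, edgeR adjusted p = 0.00188) kept its threshold and sign in every alternative run. The difference between the aSMC groups (log2 fold change -4.80 ± 1.15 SE, edgeR adjusted p = 0.00443) was lost without Ai14 replicate 7 (adjusted p = 0.0537) or 8 (adjusted p = 0.0646).

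Hspb2, a muscle small heat shock protein, was the member of its class with aSMC counts in both reporter lines and next to none elsewhere. It was at 3.83 and 3.61 CPM in Ai14 aSMCs and had a lowest of 2.11, a median of 2.71 and a highest of 8.62 CPM in Ai47 aSMCs. Only 2 counts were found in the 6 cortex libraries and 0 in the 3 astrocyte-labelled libraries, which allows up to 0.0781 CPM over that group. The ratio to cortex was 99.5 for Ai47 aSMCs (95% counting interval 27.4 to 823) and 81.0 for Ai14 aSMCs (22.2 to 673), and these intervals, like the limits for counts of 0, cover counting error only. Against the astrocyte-labelled libraries Hspb2 was at least 58.5-fold higher in Ai47 aSMCs and at least 47.6-fold higher in Ai14 aSMCs. The edgeR adjusted p against cortex was 4.63e-05 for Ai47 aSMCs and 0.00716 for Ai14 aSMCs, the latter lost without Ai14 replicate 7 (adjusted p = 0.061) or 8 (adjusted p = 0.0619). Hspb2 overlaps Cryab, a related small heat shock gene on the opposite strand, by 1030 bases in the annotation, and with no strand setting stated reads in the overlap cannot be told apart. Cryab itself was at 5.78 to 28.1 CPM in Ai47 aSMCs, 62.8 and 66.5 CPM in Ai14 aSMCs, 21.8 to 50.4 CPM in cortex and 199, 127 and 139 CPM in the astrocyte-labelled libraries, an order unlike that of Hspb2.

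Hspb6, known in smooth muscle as HSP20, was at 24.9 and 39.2 CPM in Ai14 aSMCs and ranged from 0 to 12.6 CPM in Ai47 aSMCs. Cortex ranged from 1.58 to 13.1 CPM and the astrocyte-labelled libraries were at 9.64, 11.5 and 6.87 CPM, and no comparison with cortex was called. Hspb8, the partner of Bag3, was at 109.9, 0 and 41.7 CPM in the astrocyte-labelled libraries and at most 13.1 CPM in any other library. Its call over cortex (log2 fold change 3.98 ± 1.204 SE, edgeR adjusted p = 0.0154) was lost without replicate 1 of that group (adjusted p = 0.114), and replicate 2 had 0 counts. The muscle gene Hspb3 had counts in cortex replicates 1 and 5 only, 4 and 18 in number, and was not tested.

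**Figure D4:**
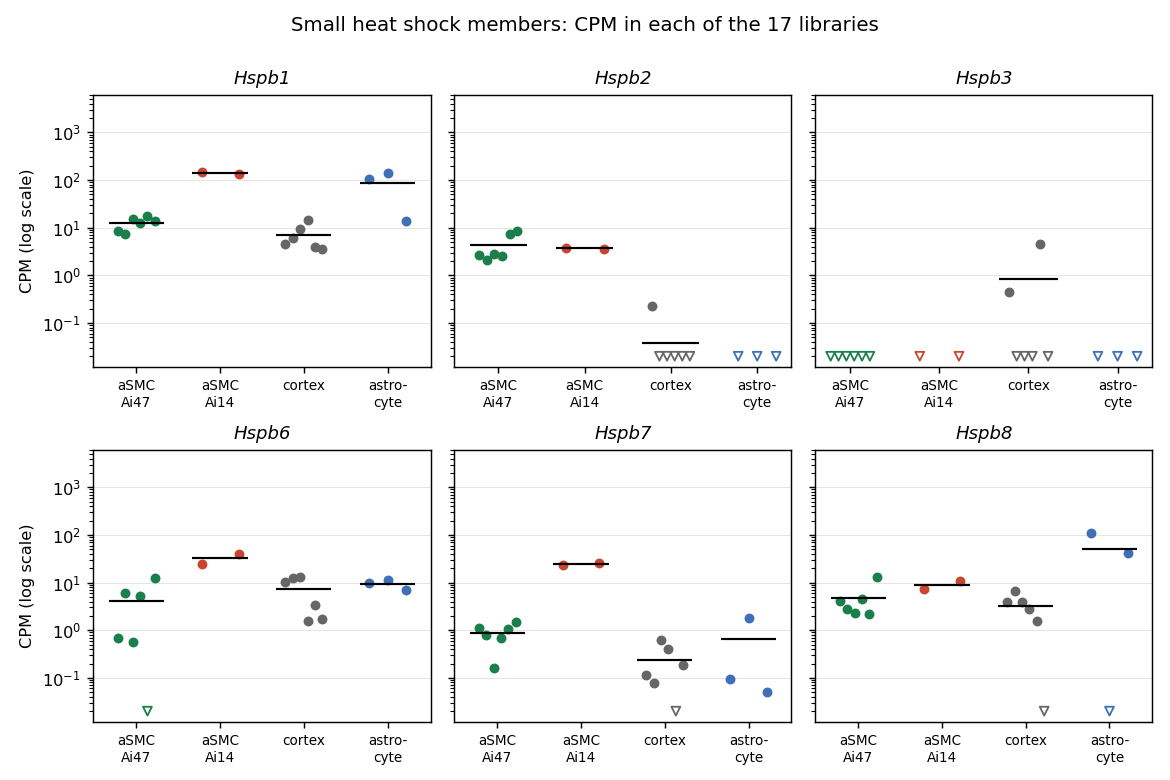
Level (CPM, log axis) of the 6 small heat shock members in the 17 libraries, with points for libraries, black bars for group means and open triangles at the bottom for libraries at 0. Hspb1 and Hspb7 stand higher in both Ai14 aSMC libraries than in the 6 Ai47 aSMC libraries, whereas the Hspb2 ranges of the 2 aSMC groups overlap.

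Among the constitutive cytosolic members Hspa8, the housekeeping HSP70, was at 476 and 455 CPM in Ai14 aSMCs and 712, 1085 and 545 CPM in the astrocyte-labelled libraries. It had a lowest of 130.1, a median of 239 and a highest of 295 CPM in Ai47 aSMCs and a lowest of 125, a median of 219.5 and a highest of 246 CPM in cortex, and those ranges overlapped. Its one call against cortex was in the astrocyte-labelled libraries (log2 fold change 1.94 ± 0.39 SE, edgeR adjusted p = 0.000894). Hsp90ab1 was lower in Ai47 aSMCs, at 122 to 213 CPM, than in cortex, at 251 to 360.5 CPM (log2 fold change -0.80 ± 0.23 SE, edgeR adjusted p = 0.00668). Hspa4, the constitutive HSP110, went the other way, at a lowest of 229, a median of 280.1 and a highest of 308 CPM in Ai47 aSMCs against a lowest of 41.8, a median of 62.8 and a highest of 68.9 CPM in cortex (log2 fold change 2.35 ± 0.25 SE, edgeR adjusted p = 4.87e-07). Hspa4 was at 94.7 and 89.0 CPM in Ai14 aSMCs and 116, 98.8 and 64.4 CPM in the astrocyte-labelled libraries, and the higher calls of Ai47 aSMCs over these (1.59 and 1.57 on the log2 scale) turned to -0.63 and -0.60 with library totals alone, and the call over Ai14 aSMCs was lost without Ai14 replicate 7 (adjusted p = 0.117) or 8 (adjusted p = 0.116).

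Bag1, a nucleotide exchange factor with an anti-apoptotic role, fell in Ai47 aSMCs. It had a lowest of 1.03, a median of 1.88 and a highest of 10.1 CPM there and a lowest of 32.8, a median of 65.5 and a highest of 69.9 CPM in cortex (log2 fold change -4.08 ± 0.60 SE, edgeR adjusted p = 1.94e-05). Elsewhere Bag1 was at 30.7 and 29.1 CPM in Ai14 aSMCs and 18.7, 87.3 and 33.5 CPM in the astrocyte-labelled libraries. Dnaja4, a J-domain protein related to Dnaja1, was at 104, 24.4 and 77.6 CPM in the astrocyte-labelled libraries, against at most 4.505 CPM in any other library (log2 fold change 5.57 ± 1.202 SE, edgeR adjusted p = 0.00168 against cortex). Hspa4l, another HSP110, was at 103, 594 and 108 CPM in the astrocyte-labelled libraries and 13.8 to 52.1 CPM in cortex, and its call (log2 fold change 2.80 ± 0.59 SE, edgeR adjusted p = 0.00148) was lost without replicate 2 of that group (adjusted p = 0.0682). Dnajb6, a suppressor of polyglutamine aggregation, was at 156, 73.3 and 76.0 CPM in the astrocyte-labelled libraries against 18.6 to 45.9 CPM in cortex (log2 fold change 1.92 ± 0.50 SE, edgeR adjusted p = 0.00646), a call lost without replicate 1 of that group (adjusted p = 0.05). Its call in Ai47 aSMCs against cortex (1.06 on the log2 scale, edgeR adjusted p = 0.0207) turned to -0.43 with library totals alone. Dnajb5, a J-domain protein of heart and brain, was at 9.86 and 14.5 CPM in Ai14 aSMCs and at most 0.798 CPM in Ai47 aSMCs, a difference (log2 fold change -5.42 ± 1.46 SE, edgeR adjusted p = 0.00989) lost without Ai14 replicate 7 (adjusted p = 0.056) or 8 (adjusted p = 0.0915).

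Of the vesicle and coat proteins, Dnajc6, the auxilin that uncoats clathrin vesicles in neurons, was at a lowest of 13.6, a median of 38.8 and a highest of 84.1 CPM in cortex and 95.1, 27.5 and 86.4 CPM in the astrocyte-labelled libraries. It was at a lowest of 0, a median of 1.56 and a highest of 7.86 CPM in Ai47 aSMCs, lower than cortex (log2 fold change -4.08 ± 0.90 SE, edgeR adjusted p = 0.000951), and at 5.69 and 2.91 CPM in Ai14 aSMCs. Neuron markers summed to 433 to 763 CPM in cortex and at most 42.1 CPM elsewhere, and their part in this result was not tested. The synaptic vesicle protein Dnajc5 and the endosomal Dnajc13 were not called against cortex in any group.

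Hspa5, Hsp90b1 and Dnajc3, the endoplasmic reticulum members with a stress response element in their window, were highest in the astrocyte-labelled libraries. Hspa5, known as BiP, was at 273, 735 and 384 CPM in the astrocyte-labelled libraries and 104 and 106 CPM in Ai14 aSMCs. Elsewhere Hspa5 had a lowest of 24.01, a median of 45.1 and a highest of 64.9 CPM in cortex and a lowest of 7.26, a median of 15.7 and a highest of 35.4 CPM in Ai47 aSMCs. Every library of the first 2 groups lay above every cortex library, and Ai47 aSMCs overlapped cortex. Hsp90b1, known as GRP94, was at 453, 662 and 278 CPM in the astrocyte-labelled libraries and 269.6 and 188 CPM in Ai14 aSMCs. Elsewhere Hsp90b1 had a lowest of 112, a median of 147 and a highest of 178 CPM in cortex and a lowest of 23.4, a median of 34.5 and a highest of 65.5 CPM in Ai47 aSMCs. Here no Ai47 library overlapped cortex. Dnajc3, the p58IPK co-chaperone of BiP, was at 112, 393 and 268 CPM in the astrocyte-labelled libraries and 69.6 and 61.4 CPM in Ai14 aSMCs. Elsewhere Dnajc3 had a lowest of 30.1, a median of 34.4 and a highest of 38.5 CPM in cortex and a lowest of 2.30, a median of 9.48 and a highest of 17.5 CPM in Ai47 aSMCs. For all 3 genes the means ran from the astrocyte-labelled libraries down through Ai14 aSMCs and cortex to Ai47 aSMCs. The same order was seen in 9 of the 56 tested members whose windows lacked the element, among them Dnajb9, a reticulum member, Hspd1 and Hsph1. In the astrocyte-labelled libraries Hspa5 (log2 fold change 3.40 ± 0.53 SE, edgeR adjusted p = 0.000114), Hsp90b1 (log2 fold change 1.67 ± 0.44 SE, edgeR adjusted p = 0.00714) and Dnajc3 (log2 fold change 2.92 ± 0.55 SE, edgeR adjusted p = 0.000526) were higher than cortex. The Hsp90b1 call was lost without replicate 2 of that group (adjusted p = 0.054). In Ai47 aSMCs Hsp90b1 (log2 fold change -1.81 ± 0.32 SE, edgeR adjusted p = 0.00012) and Dnajc3 (log2 fold change -1.72 ± 0.49 SE, edgeR adjusted p = 0.00613) were lower than cortex. The fall of Hspa5 there (log2 fold change -1.12 ± 0.44 SE, edgeR adjusted p = 0.0396) was lost in 13 alternatives, among them without any 1 of Ai47 replicates 1, 2, 3 or 4 or of cortex replicates 1 to 5. Against the astrocyte-labelled libraries, Ai47 aSMCs were lower, with log2 fold changes of -4.56 for Hspa5, -3.54 for Hsp90b1 and -4.75 for Dnajc3 (edgeR adjusted p = 1.89e-06, 3.69e-06 and 1.84e-06). No difference of Ai14 aSMCs from cortex was called for them (log2 fold changes 1.25 ± 0.59, 0.65 ± 0.51 and 0.94 ± 0.62 SE). Per kb of exon, Hspa5 was 0.0303 to 0.124 times Hspa8 in Ai47 aSMCs, 0.221 and 0.237 times in Ai14 aSMCs, 0.118 to 0.382 times in cortex and 0.390 to 0.717 times in the astrocyte-labelled libraries.

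Other reticulum members rose in Ai47 aSMCs, among them Dnajc25 and Dnajb12, whose windows lacked that element, and Dnajc18, for which no window was read. Members without the element did not all rise. Dnajb11 also lacked it and was at 1.62 to 4.40 CPM in Ai47 aSMCs, below the 9.16 to 18.1 CPM of cortex. Dnajc18, a membrane J-domain protein, had a lowest of 410.2, a median of 477 and a highest of 598 CPM in Ai47 aSMCs and a lowest of 31.9, a median of 42.0 and a highest of 83.7 CPM in cortex (log2 fold change 3.44 ± 0.32 SE, edgeR adjusted p = 1.33e-07). Elsewhere Dnajc18 was at 46.8 and 35.4 CPM in Ai14 aSMCs. In the astrocyte-labelled libraries it was at 8.33, 425 and 62.3 CPM, and the call of that group over cortex (log2 fold change 1.82) turned to -0.57 without its replicate 2. Dnajc25 had a lowest of 105, a median of 156 and a highest of 199.6 CPM in Ai47 aSMCs, against 0.189 to 5.94 CPM in cortex (log2 fold change 6.28 ± 0.66 SE, edgeR adjusted p = 4.74e-07), 5.30 and 4.30 CPM in Ai14 aSMCs and 26.4, 0.127 and 0.859 CPM in the astrocyte-labelled libraries. Dnajb12, which aids the removal of misfolded membrane proteins, ranged from 32.8 to 49.1 CPM in Ai47 aSMCs and 0.989 to 6.80 CPM in cortex (log2 fold change 3.58 ± 0.54 SE, edgeR adjusted p = 2.55e-05). In these 3 genes every Ai47 library was above every cortex and Ai14 library.

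The mitochondrial folding pair Hspd1 and Hspe1 and the HSP70 of the matrix, Hspa9, went in opposite directions in Ai47 aSMCs. Hspd1 had a lowest of 2.78, a median of 5.45 and a highest of 30.0 CPM in Ai47 aSMCs and a lowest of 23.5, a median of 47.3 and a highest of 66.7 CPM in cortex (log2 fold change -1.92 ± 0.59 SE, edgeR adjusted p = 0.0101). Elsewhere Hspd1 was at 71.2 and 75.3 CPM in Ai14 aSMCs and 135, 183 and 159 CPM in the astrocyte-labelled libraries. Hspe1 had a lowest of 0.786, a median of 0.931 and a highest of 5.97 CPM in Ai47 aSMCs and a lowest of 1.89, a median of 6.91 and a highest of 21.5 CPM in cortex (log2 fold change -2.34 ± 0.75 SE, edgeR adjusted p = 0.0134), a call lost when cortex replicates 1 and 2 were left out together (adjusted p = 0.149). It was at 12.6 and 6.18 CPM in Ai14 aSMCs and 59.7, 53.8 and 58.2 CPM in the astrocyte-labelled libraries. Hspa9 had a lowest of 32.6, a median of 66.5 and a highest of 97.3 CPM in Ai47 aSMCs and a lowest of 9.61, a median of 18.8 and a highest of 35.5 CPM in cortex (log2 fold change 1.76 ± 0.40 SE, edgeR adjusted p = 0.00109), and this call was lost with library totals alone (0.16 on the log2 scale, adjusted p = 0.809). The ratio of Hspa9 to Hspd1 per kb of exon, which scaling cannot move, was 0.667 to 16.8 in Ai47 aSMCs and 0.126 to 0.516 in every other library. Hspd1 and Hspe1 overlap by 112 bases in the annotation on opposite strands, so reads there cannot be told apart. Dnajc11, a J-domain protein tied to the cristae complex of the inner membrane, had a lowest of 41.3, a median of 100.2 and a highest of 138 CPM in Ai47 aSMCs and a lowest of 2.27, a median of 8.27 and a highest of 13.1 CPM in cortex (log2 fold change 3.63 ± 0.47 SE, edgeR adjusted p = 5.62e-06). It was at 8.07 and 7.52 CPM in Ai14 aSMCs and 1.59, 2.54 and 1.92 CPM in the astrocyte-labelled libraries. Counts of genes encoded by mitochondrial DNA took 35.7% to 72.9% of cortex and under 0.56% of Ai47 libraries, and with those genes left out the Hspd1, Hspe1 and Hspa9 calls in Ai47 aSMCs against cortex were kept.

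Hspa2, an HSP70 best known from spermatocytes, had the highest level per kb of exon of all members in Ai47 aSMCs and the largest log2 fold change over cortex of the 62 members tested there. It had a lowest of 562, a median of 765 and a highest of 976 CPM in Ai47 aSMCs and a lowest of 0.378, a median of 3.72 and a highest of 9.73 CPM in cortex (log2 fold change 7.70 ± 0.66 SE, edgeR adjusted p = 4.44e-08). Elsewhere Hspa2 was at 40.9 and 38.2 CPM in Ai14 aSMCs and 252, 316 and 196 CPM in the astrocyte-labelled libraries. All 3 sorted groups lay above all 6 cortex libraries. The rise in the astrocyte-labelled libraries was called (log2 fold change 5.96 ± 0.67 SE, edgeR adjusted p = 3.74e-06). That in Ai14 aSMCs (log2 fold change 3.27 ± 0.67 SE, edgeR adjusted p = 0.00414) was lost without Ai14 replicate 7 (adjusted p = 0.065) or 8 (adjusted p = 0.0625). Per kb of exon Hspa2 was 4.08 to 7.69 times Hspa8 in Ai47 aSMCs, 0.473 to 0.586 times in the astrocyte-labelled libraries and at most 0.140 times in Ai14 aSMCs and cortex.

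Dnajb13, a component of the radial spoke of motile cilia, was at 20.04, 27.5 and 6.37 CPM in the astrocyte-labelled libraries. It had 3 counts in the 6 Ai47 libraries together, 0.304 and 0.0303 CPM in Ai14 aSMCs and at most 2.39 CPM in cortex. The ratio of the astrocyte-labelled libraries to Ai47 aSMCs was 680 with a 95% counting interval of 231 to 3310.0, and the rise over cortex was called (log2 fold change 4.78, edgeR adjusted p = 0.0128). The ependymal markers moved with it, at 1199, 1726 and 811.5 CPM in astrocyte-labelled replicates 1, 2 and 3 with 6 of 6 markers detected, and their part in this result was not tested. Hspb11, a subunit of the ciliary transport complex IFT-B despite its name, had a mean of 10.6 ± 5.19 CPM (SD, n = 6) in Ai47 aSMCs and 2.15, 25.8 and 15.97 CPM in the astrocyte-labelled libraries, against 0 to 2.47 CPM in cortex and 1.70 and 2.64 CPM in Ai14 aSMCs. Both rises over cortex were called (log2 fold change 3.15 ± 0.80 SE, edgeR adjusted p = 0.00286 and log2 fold change 3.44 ± 0.97 SE, edgeR adjusted p = 0.0104). The first was lost with library totals alone (adjusted p = 0.181) and the second without astrocyte-labelled replicate 2 (adjusted p = 0.0514). Hspa1l, which lies 546 bases from Hspa1a on the opposite strand, had 0 counts in the astrocyte-labelled libraries and was at least 21.5-fold higher in cortex, where it ranged from 0 to 6.24 CPM. It was at 5.81 and 11.9 CPM in Ai14 aSMCs and 0.105 to 1.496 CPM in Ai47 aSMCs, and reads of Hspa1a could have been counted to it.

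Hspa12a, an atypical HSP70 of brain, had a lowest of 59.2, a median of 94.5 and a highest of 359.7 CPM in Ai47 aSMCs, against a lowest of 10.6, a median of 14.7 and a highest of 37.8 CPM in cortex (log2 fold change 2.95 ± 0.54 SE, edgeR adjusted p = 0.000191). Its endothelial relative Hspa12b had 1 count in the 3 astrocyte-labelled libraries, a ratio of cortex to them of 288 with a 95% counting interval of 51.4 to 11400.0, as cortex ranged from 0.258 to 14.5 CPM. It ranged from 0.606 to 22.5 CPM in Ai47 aSMCs and was at 4.14 and 3.76 CPM in Ai14 aSMCs. Among the other members Dnajc27, a Rab-like GTPase with a J domain, had a lowest of 23.5, a median of 40.4 and a highest of 64.4 CPM in cortex and a lowest of 0.0406, a median of 0.197 and a highest of 0.741 CPM in Ai47 aSMCs (log2 fold change -6.98 ± 0.68 SE, edgeR adjusted p = 2.24e-07). It was at 10.3 and 8.67 CPM in Ai14 aSMCs and 18.6, 0.127 and 0 CPM in the astrocyte-labelled libraries. The lower call of Ai47 aSMCs against the latter (log2 fold change -4.36) turned to 2.74 without astrocyte-labelled replicate 1. Dnajc28 reached 206 CPM in astrocyte-labelled replicate 2 and at most 3.50 CPM in any other library, so its call over cortex (log2 fold change 6.02) was 0.27 without that library.

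Of the nuclear and ribosomal members, Dnajc8, a splicing-associated J-domain protein, averaged 31.1 ± 7.498 CPM (SD, n = 6) in Ai47 aSMCs. The cortex mean was 11.9 ± 4.05 CPM (SD, n = 6), and the difference (log2 fold change 1.49 ± 0.40 SE, edgeR adjusted p = 0.00459) was lost with library totals alone (0.12 on the log2 scale, adjusted p = 0.844). Dnajc9, a histone chaperone, was called there too (log2 fold change 2.04 ± 0.85 SE, edgeR adjusted p = 0.0488) and lost its call in 15 alternatives, including 9 of the 12 that left out 1 library. Dnajc21, a ribosome biogenesis factor, was not called against cortex in any group. The membrane protein Dnajc14 was higher in Ai47 aSMCs than in cortex (log2 fold change 1.23 ± 0.41 SE, edgeR adjusted p = 0.0176) and turned to -0.09 with library totals alone.

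**Figure D5:**
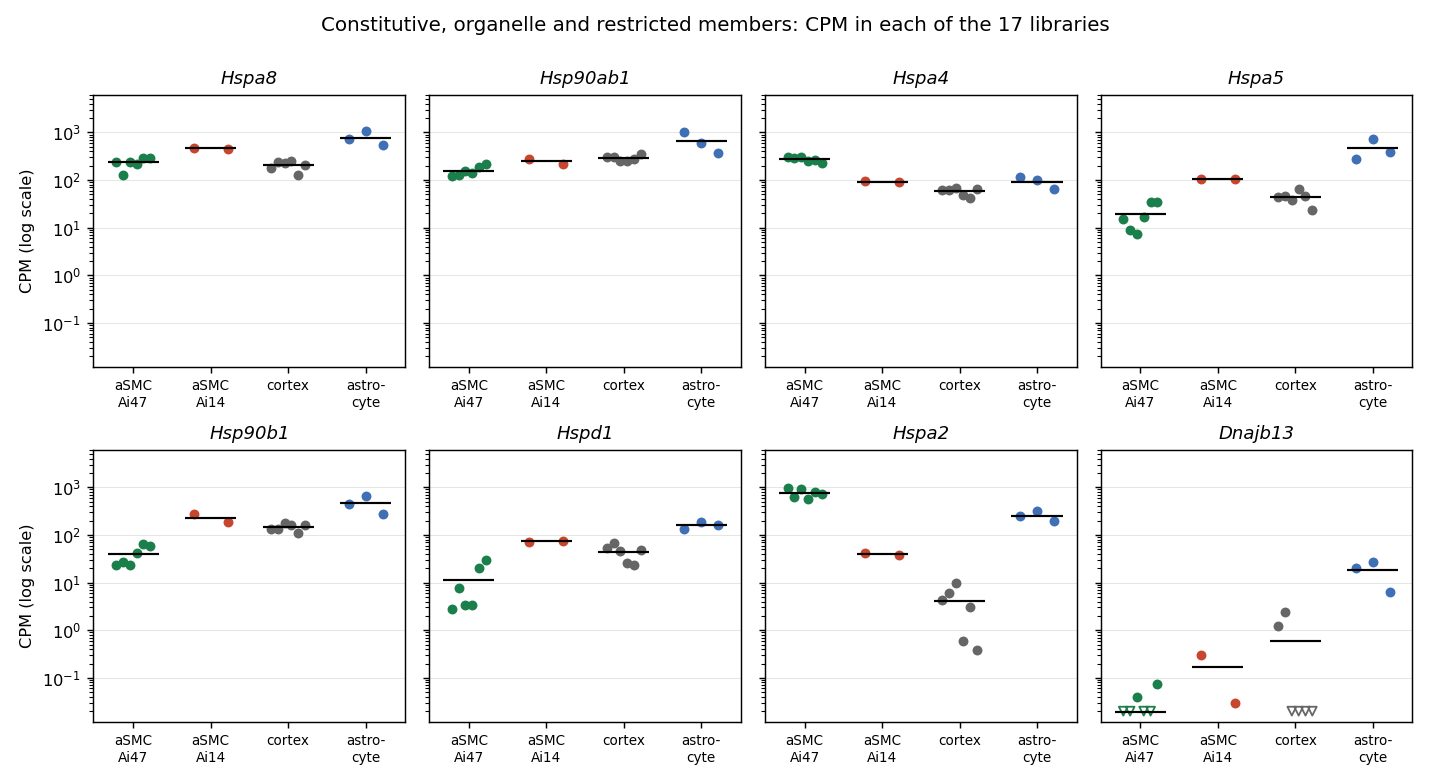
Level (CPM, log axis) of constitutive, reticulum, mitochondrial and restricted members in the 17 libraries, with points for libraries, black bars for group means and open triangles at the bottom for libraries at 0. By group mean Hspa5, Hsp90b1 and Hspd1 are highest in the astrocyte-labelled libraries and lowest in Ai47 aSMCs. Hspa2 is highest in Ai47 aSMCs and Dnajb13 in the astrocyte-labelled libraries.

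A set of 16 HSF-family and co-chaperone genes outside the naming pattern was set beside the members, and 14 of them were tested. Against cortex 4 were higher and 1 lower in Ai47 aSMCs, 0 were called in Ai14 aSMCs, and 5 were higher and 1 lower in the astrocyte-labelled libraries. Of all genes, 33.6% were called higher and 25% lower in Ai47 aSMCs and 3.97% and 2% in Ai14 aSMCs. In the astrocyte-labelled libraries these shares were 14.6% and 19.8%. St13, the HIP protein that holds HSP70 in its ADP state, had a lowest of 29290.0, a median of 33180.0 and a highest of 44300.0 CPM in Ai47 aSMCs, against 39.3 and 44.7 CPM in Ai14 aSMCs, 17.6 to 45.7 CPM in cortex and 146, 82.2 and 230.2 CPM in the astrocyte-labelled libraries (log2 fold change 10.14 ± 0.37 SE, edgeR adjusted p = 1.01e-11 for Ai47 aSMCs against cortex). Its raw counts in the 6 Ai47 libraries lay between 777415 and 824099, a coefficient of variation of 2.07%, and St13 was 1 of the 179 genes with such a small spread there, so its p-value rests on libraries whose independence is not known. The call was kept with the Ai47 columns summed to 1 library. Ptges3, the p23 co-chaperone of HSP90, had 1134 to 1423 CPM in Ai47 aSMCs against 15.8 to 61.0 CPM in cortex (log2 fold change 5.22 ± 0.31 SE, edgeR adjusted p = 6.94e-10). The heat shock factor gene Hsf2 had 202 to 267 CPM in Ai47 aSMCs against 1.32 to 15.1 CPM in cortex (log2 fold change 5.11 ± 0.51 SE, edgeR adjusted p = 2.96e-07). Hsbp1, which binds heat shock factor 1, went the other way (log2 fold change -3.35 ± 0.49 SE, edgeR adjusted p = 2.06e-05). Stip1, the HOP adaptor between HSP70 and HSP90, was called higher (log2 fold change 1.41 ± 0.50 SE, edgeR adjusted p = 0.0224), which was lost without Ai47 replicate 5 (adjusted p = 0.0619) and with library totals alone (adjusted p = 0.737). Hsf1 was at 23.6 and 33.95 CPM in Ai14 aSMCs and at most 9.13 CPM in any other library. Its difference between Ai14 aSMCs and cortex was not called.

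Low counts kept 11 members out of the fits over 17 libraries (Dnaja1-ps, Dnajb3, Dnajb7, Dnajc22, Hspa9-ps1, Hspb3, Hspb9, Hspd1-ps4, Hspe1-ps2, Hspe1-ps3 and Hspe1-ps5). The fit of Ai47 aSMCs and cortex alone left out these and 11 more, among them Dnaja4, Dnajb5, Dnajb13 and Hspb7, whose levels in those 2 groups were low.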

How the data were processed

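RNA-seq was measured in 17 mouse libraries (6 Ai47 aSMC, 2 Ai14 aSMC, 6 cortex and 3 astrocyte libraries), grouped by their labels. The authors deposited 1 table of raw counts per gene. The submitters' processing notes name Trim Galore 0.6.7, FastQC 0.11.9, MultiQC 1.13, Salmon 1.4.0 and GRCm38, whereas the study's methods name TopHat, htseq-count and DESeq2, so the tool behind these counts is uncertain. Members and gene lists were chosen with earlier results of these data known. Counts were filtered with filterByExpr (minimum count 10), scaled by TMM and tested with edgeR 4.0.16 (R 4.3.3) by the quasi-likelihood test, with Benjamini-Hochberg adjustment over all genes tested and a threshold of 0.05. Ai47 aSMCs and cortex were fitted on their 12 libraries, and all other comparisons on all 17, so that small groups shared 1 estimate of the spread. CPM used TMM-scaled library sizes, and levels per kb the union of GENCODE M21 exons, to which 83 of 84 members matched. Named genes were all stress-inducible and small heat shock members, the 3 highest per kb of each other class, the 3 largest called changes per direction and comparison at 10 CPM or more, and related genes called in Ai47 aSMCs against cortex. Dnajc3 and Dnajb6 were added after their values were seen. Dnajb11 and Hsf1 were later added as levels only and do not enter the counts of named results. DESeq2 1.42.0, other scalings and filters, and left-out libraries were alternatives. The fits were tested on simulated counts first.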

Additional observations from a re-analysis of the deposited data

Results flagged for a closer look

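In 11 of 91 sets of a named gene, member or related, and a group of 6 libraries, 1 library stood apart by Dixon's test, which chance flags in about 1 of 20 sets. In cortex these were Bag1 in replicate 4 (32.8 CPM, next 63.0), Dnajc13 in replicate 4 (55.2, next 18.9), Dnajc18 in replicate 5 (83.7, next 48.0), Dnajc21 in replicate 3 (44.7, next 17.8) and Hspa1b in replicate 5 (21.7, next 5.70 CPM). In Ai47 aSMCs they were Dnajb4 in replicate 5 (319.7 CPM, next 184.5), Hspa12a in replicate 1 (359.7, next 109), Hspa1b in replicate 2 (14.2, next 1.35), Hspb11 in replicate 1 (20.4, next 11.3), Hspb8 in replicate 6 (13.1, next 4.46) and Hspe1 in replicate 6 (5.97, next 1.66 CPM).

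The 2 aSMC groups lay on opposite sides of cortex, and differed from each other past the threshold, in 10 named members. Of these, 8 were lower in Ai47 than in Ai14 aSMCs, by log2 fold changes of -6.51 for Hspa1a, -5.54 for Hspa1b, -3.62 for Bag3, -2.78 for Dnajc3, -2.71 for Hspd1, -2.56 for Hsph1, -2.52 for Hsp90b1 and -2.42 for Hspa5. Dnajc18 and Dnajc11 were higher in Ai47 aSMCs, by 3.56 and 3.54, with Ai14 aSMCs within 0.18 of cortex for the first and 0.02 for the second. Without Ai14 replicate 7 the call of each of the 10 but Hspa1a was lost.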

How the results depend on the processing

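In this section astrocyte and astrocytes stand for the astrocyte-labelled libraries, whose label did not hold in full. Of 136 named results past the threshold, 43 kept threshold and sign under every alternative and 7 changed sign under some. With library totals in place of TMM the members higher and lower became 11 and 25 in Ai47 aSMCs against cortex, 5 and 44 in Ai47 aSMCs against astrocytes, and 1 and 37 in Ai47 against Ai14 aSMCs, while higher members in Ai14 aSMCs against cortex became 13 and lower members became 2 in astrocytes against cortex and 1 in Ai14 aSMCs against astrocytes. That scaling shifted the median of all genes to -1.13, 1.18, 0.80, 0.30, -1.89 and -2.59 on the log2 scale in Ai47, Ai14 and astrocyte against cortex, Ai14 and Ai47 against astrocyte and Ai47 against Ai14, and reversed Dnajb6 (-0.425) and Dnajc14 (-0.0933) in Ai47 aSMCs against cortex, Hspa4 (-0.603) and Ptges3 (-0.83) in Ai47 aSMCs against astrocytes and Hspa4 (-0.631) in Ai47 against Ai14 aSMCs. With the 6 Ai47 columns summed to 1 library, which is assumed to vary like the other groups, 34 of 89 named calls were kept, and members higher and lower were 12 and 3 against cortex, 5 and 7 against astrocytes and 1 and 0 against Ai14 aSMCs. DESeq2 kept 126 of 127 named calls and gave 1 lower member in Ai14 aSMCs against cortex and 21 against astrocytes. Fitting only the libraries of the 2 groups gave 4 lower in Ai14 aSMCs against cortex, 2 lower in astrocytes against cortex, 0 higher and 0 lower in Ai14 aSMCs against astrocytes (7 and 11 at an unadjusted p under 0.05) and 11 higher in Ai47 against Ai14 aSMCs. DESeq2 size factors gave 8, and no filter 1, lower in Ai14 aSMCs against astrocytes, and without mitochondrial genes 17 were higher in Ai47 aSMCs against astrocytes.

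Leaving out 1 library moved the members higher in Ai14 aSMCs against cortex between 4 and 8, those higher and lower against astrocytes between 3 and 9 and between 0 and 9, those higher in Ai47 aSMCs against astrocytes between 12 and 18, and those higher and lower in Ai47 against Ai14 aSMCs between 2 and 6 and between 3 and 18. It moved Dnajc18 in astrocytes against cortex between -0.57 and 2.32 and Dnajc27 in Ai47 aSMCs against astrocytes between -4.63 and 2.74 on the log2 scale. The cause of these changes was not tested.

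Libraries with the same replicate number did not deviate together (correlations of -0.0505 to 0.0323). These correlations are between different cell populations, so they cannot show whether same-numbered libraries share animals. A fit with the replicate block gave 7 higher and 1 lower members in astrocytes against cortex, 5 and 14 in Ai47 aSMCs against astrocytes, and 20 and 14 in Ai47 aSMCs against cortex. The first 2 of these used 3 libraries a group. Ai14 aSMCs share no replicate number with another group. With 2 Ai14 and 3 astrocyte libraries, a missing call does not show equal levels.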
